A study of Mus musculus with 40 samples.

Results

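Pre-mRNA splicing is steered by RNA-binding proteins, and the families described here hold the main ones. They were followed in mouse liver through 184 probe sets of 70 genes whose single annotated symbol begins with Srsf, Hnrnp, Luc7l, Rbm or Tra2, or is Clk1, Clk2, Clk3 or Clk4. Of 234 probe sets of 81 genes with such a symbol, these 184 reached a log2 intensity of 4 on at least 3 arrays of at least 1 group, as did 18935 of all 45037 probe sets on the array. The Srsf family gave 30 probe sets of 9 genes, Hnrnp 52 of 19, Luc7l 15 of 3, Rbm 76 of 33, Tra2 6 of 2 and Clk 5 of 4. A further 11 genes (Rbm11, Rbm19, Rbm24, Rbm38, Rbm3os, Rbm44, Rbm46, Rbm46os, Rbmx2, Rbmxl2 and Srsf12) had no probe set over the minimum. Just outside it lay Tra2a 1429680_at, whose deciding value was 3.99, and Rbmx 1416355_at at 3.96; just inside lay Hnrnpab 1459880_at at 4.07, which reached the minimum in 1 group only. In all, 182 of the 184 reached it in every group.

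SR proteins (the Srsf genes) bind exonic enhancers and promote the use of splice sites, while many hnRNPs bind pre-mRNA to oppose or modulate them. LUC7-like proteins are related to a component of the U1 particle that recognises 5′ splice sites, the Tra2 proteins are SR-like splicing activators, and the CLK kinases phosphorylate SR proteins. Rbm proteins are a loose group defined by an RNA recognition motif, and many SR and hnRNP genes limit their own output through exons that send their transcripts to nonsense-mediated decay. One gene can therefore give several transcripts, and probe sets of one gene need not read the same ones.

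Livers came from male Wt C57BL/6J mice and from Nrf2-null (Nrf2-/-) mice of the same strain, 12 weeks of age, that lack Nrf2 in every cell. Nrf2 is the transcription factor released from its repressor Keap1 by electrophilic compounds. Mice of each genotype were gavaged with vehicle (Cremophor-EL, DMSO and PBS), with 300 μmol/kg D3T, a dithiolethione, or with 3, 10 or 30 μmol/kg CDDO-Im, a synthetic triterpenoid, 3 times within 5 days. The livers were collected 24 h after the last gavage, from 4 mice in each of 10 groups. RNA was measured on 40 Affymetrix mouse whole-genome arrays, and all values below are GCRMA log2 intensities, in which a step of 1 is a doubling. The Nrf2 gene, Nfe2l2, checked the genotypes: probe set 1416543_at read 10.77 to 11.75 across the 20 Wt arrays, against 2.72 to 3.1 across the 20 Nrf2-null arrays. Probe set 1457117_at of the same gene read 4.49 to 7.1 and 5.96 to 7.47, so it did not separate them.

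"Called" below means a Benjamini-Hochberg adjusted p under 0.05 in a limma fit over all 18935 probe sets. Array medians over those probe sets ran from 7.5 to 7.86. Against Wt vehicle, array medians were shifted by -0.17 for 30 μmol/kg CDDO-Im in Wt mice, and by -0.05 for 10 μmol/kg. Setting each array's median equal, termed centring, removed these shifts and so moved the changes at both doses upward. Calls were compared with and without centring. Mice of the D3T and 30 μmol/kg groups carry animal numbers from other ranges than the vehicle mice, whereas the 10 μmol/kg mice share the vehicle range. For D3T and 30 μmol/kg, number range and treatment cannot be told apart. In whole liver, fewer cells of a type and less RNA per cell cannot be told apart either.

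Promoters of 2 genes that the results turn on are shown, since Nrf2 acts through antioxidant response elements: Srsf3, which fell at 10 μmol/kg, and Rbm5, a probe set of which rose. Each is the 250 bases before the RefSeq start site in GRCm38.p6, read 5′ to 3′ on the gene's strand. Capitals mark a match to the element core TGACNNNGC on either strand.
Srsf3, chr17:29032410-29032659, plus strand: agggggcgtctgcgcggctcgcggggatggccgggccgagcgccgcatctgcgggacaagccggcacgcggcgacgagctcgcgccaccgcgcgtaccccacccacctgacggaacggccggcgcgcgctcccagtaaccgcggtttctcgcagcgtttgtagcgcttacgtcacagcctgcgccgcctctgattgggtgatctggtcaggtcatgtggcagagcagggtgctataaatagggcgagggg
Rbm5, chr9:107771003-107771252, minus strand: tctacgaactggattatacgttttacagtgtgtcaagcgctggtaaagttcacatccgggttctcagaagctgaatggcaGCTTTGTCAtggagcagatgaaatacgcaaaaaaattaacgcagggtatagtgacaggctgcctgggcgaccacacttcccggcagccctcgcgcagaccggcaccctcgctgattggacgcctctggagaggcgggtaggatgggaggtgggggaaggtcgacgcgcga
The Srsf3 window held no match, and the Rbm5 window held 1, on the strand opposite to the gene, starting at position -170. This was the only motif searched. It was in 10.2% of 32851 promoters of this length and in 15 of 80 promoters of member genes (18.8%), which belong to 12 of the 60 member genes found in the table: Clk3, Hnrnpf, Hnrnpk, Luc7l3, Rbm12, Rbm14, Rbm42, Rbm47, Rbm4b, Rbm5, Srsf2 and Srsf4. A match is only a run of letters, and binding was not measured here.

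In Wt mice members were called at 10 and 30 μmol/kg CDDO-Im, and 1 each after D3T and 3 μmol/kg. At 10 μmol/kg, 22 member probe sets rose and 28 fell, 27.2% of members, against 17.0% of all probe sets called (6.65% higher and 10.3% lower). At 30 μmol/kg 7 rose and 34 fell, 22.3% of members, against 19.8% of all (3.62% higher and 16.2% lower). After D3T only Rbm39 1442744_at was called and after 3 μmol/kg only Hnrnpr 1452030_a_at, both higher, against 3.16% (1.92% higher and 1.24% lower) and 1.22% (0.85% and 0.37%) of all probe sets. In Nrf2-null mice no member was called at 10 or 30 μmol/kg by limma (22 and 24 had an unadjusted p under 0.05, and an exact Wilcoxon test with a 1.5-fold minimum called 1 at each), against 0.444% (0.1% higher and 0.343% lower) and 0.882% (0.18% and 0.702%) of all probe sets.

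**Figure D1:**
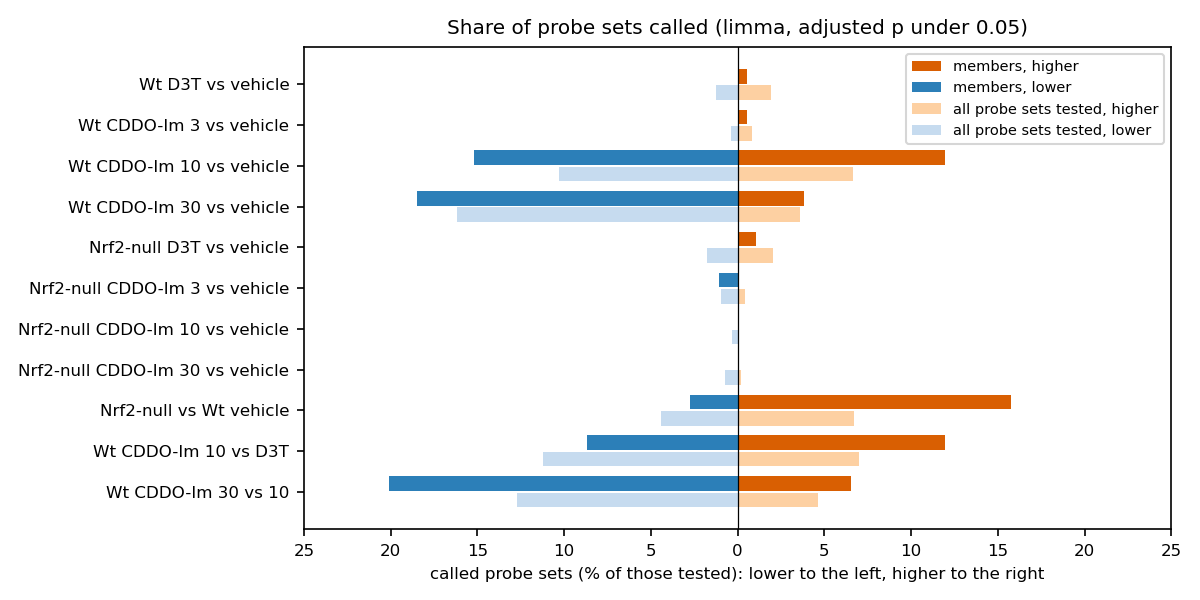
Percent of the 184 member probe sets, and of all 18935 tested, called lower (bars to the left) and higher (bars to the right) in 11 comparisons. Members were called in both directions in Wt mice at 10 μmol/kg and chiefly lower at 30 μmol/kg, and none were called in Nrf2-null mice at those doses.

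Direction depended on scaling in several comparisons. With centred arrays the Wt split of 22 higher and 28 lower at 10 μmol/kg became 31 and 20 (background 16.8%, 9.0% higher and 7.77% lower). That of 7 higher and 34 lower at 30 μmol/kg became 17 and 7 (background 13.5%, 8.64% higher and 4.84% lower). At 30 μmol/kg the share of members called thus lay near that of all probe sets under both scalings. Members called under both scalings numbered 22 higher and 20 lower at 10 μmol/kg, and 7 higher and 7 lower at 30 μmol/kg. The share of all probe sets called under both scalings is not given, here or below. Which direction prevailed at 30 μmol/kg thus depended on the scaling, for members as for all probe sets. The median change of members was -0.002 at 10 and -0.137 at 30 μmol/kg, beside -0.042 and -0.126 for all probe sets.

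The Srsf family at 10 μmol/kg stood on one side: 11 of its 30 probe sets fell and none rose, and with centred arrays 8 fell and none rose. Srsf3, the smallest classical SR protein, led, with 5 of 6 probe sets called lower under both scalings. On 1416150_a_at the Wt vehicle mice read 11.53, 11.52, 11.68 and 11.82, and the 10 μmol/kg mice 10.52, 10.91, 10.93 and 10.93. All 4 treated mice lay below every vehicle mouse, and the change was -0.82 (SE 0.16, adjusted p = 0.000573). Lack of overlap was part of the rule by which many probe sets were named. For named probe sets, here and below, it therefore describes the values and is no separate support. On 1416151_at the vehicle mice read 7.09, 7.38, 7.68 and 7.83 and the treated mice 6.12, 6.55, 6.6 and 6.81, again with no overlap, a change of -0.98 (SE 0.24, adjusted p = 0.00541). Probe sets 1454993_a_at (-0.93), 1416152_a_at (-0.91) and 1434512_x_at (-0.64) fell likewise, with adjusted p of 0.00314, 0.00464 and 0.00254. The exception was 1438215_at, at 6.62, 6.4, 6.48 and 6.18 in vehicle mice and 6.66, 6.48, 6.49 and 6.48 in treated mice, a change of 0.11 (adjusted p = 0.683).

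**Figure D2:**
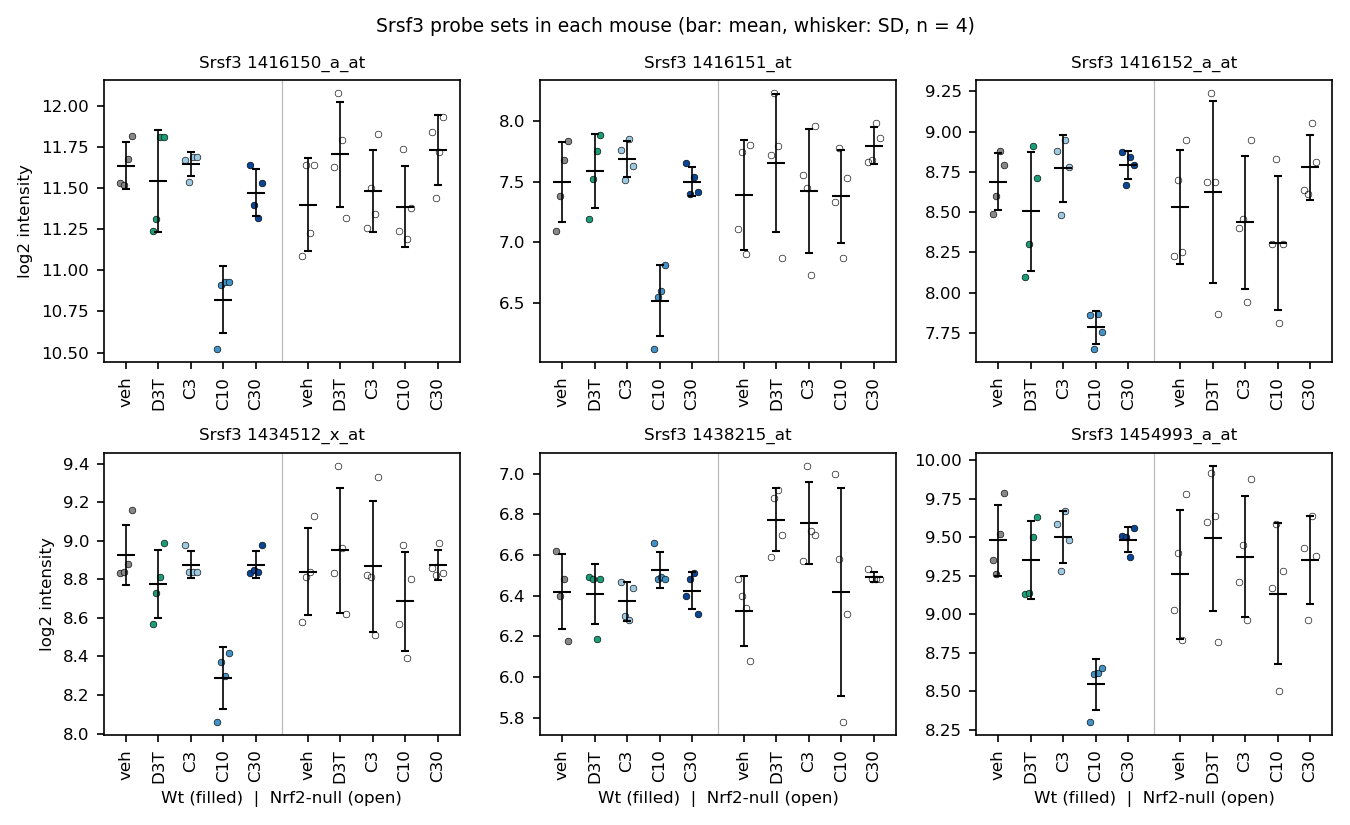
Log2 intensity of the 6 Srsf3 probe sets in each mouse of the 10 groups, 1 panel per probe set, with bars for the mean and SD of 4 mice. In 5 panels the Wt 10 μmol/kg group lies below Wt vehicle and below Wt 30 μmol/kg; in the panel of 1438215_at it does not.

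The lower level of Srsf3 at 10 μmol/kg was absent at 30 μmol/kg. On 1416150_a_at the 30 μmol/kg mice read 11.64, 11.4, 11.32 and 11.53, which overlapped the vehicle mice, and no Srsf3 probe set was called there. Tested directly, 30 exceeded 10 μmol/kg on 5 of 6 probe sets, by 0.65 on 1416150_a_at (adjusted p = 0.00418), 0.98 on 1416151_at and 1.01 on 1416152_a_at. In Nrf2-null mice 1416150_a_at read 11.09, 11.64, 11.23 and 11.64 with vehicle and 11.24, 11.74, 11.19 and 11.38 with 10 μmol/kg, a change of -0.01 (SE 0.16). The genotype difference in the response was -0.80 on this probe set (SE 0.22, adjusted p = 0.0249), and it was not called on the other 5, so for those a difference between the genotypes was not shown.

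Other SR genes moved less; Srsf1, Srsf6, Srsf9, Srsf10 and Srsf11 were picked after their values were seen. Srsf1, the founding SR protein, fell on 3 of 6 probe sets at 10 μmol/kg (-0.53, -0.50 and -0.31; 2 of 6 with centring) and on none at 30 μmol/kg. On Srsf1 1428100_at vehicle mice read 9.11, 9.26, 9.31 and 9.47 and treated mice 8.67, 8.91, 8.75 and 8.71, without overlap. That call needed Wt vehicle replicate 4 and 10 μmol/kg replicate 1 (-0.50 and -0.47 without them). Srsf10 1449121_at fell by 0.58 at 10 μmol/kg (0.50 and not called without Wt vehicle replicate 3). Srsf6 1416721_s_at fell by 0.27 and 0.42, and Srsf9 by 0.29 and 0.36, at 10 and 30 μmol/kg, and neither was called at either dose with centring (adjusted p = 0.0906 and 0.0744 at 10 μmol/kg, 0.0515 and 0.161 at 30 μmol/kg). Their 10 μmol/kg calls were also lost on leaving out any 1 of several mice. Srsf11, an SR-related protein, fell at 30 μmol/kg on 3 of 4 probe sets (-0.53, -0.36 and -0.35) and on none at 10 μmol/kg. None of the 6 Srsf calls at 30 μmol/kg held with centring.

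Members that rose at 10 μmol/kg were mostly Rbm (12 higher, 7 lower), Hnrnp (6 and 6) and Luc7l (3 and 1) probe sets. Rbm33 1455430_at, of an RNA recognition motif protein, read 8.56, 8.23, 8.39 and 7.91 in vehicle mice and 9.8, 9.22, 9.42 and 9.36 in treated mice. All treated mice were higher, by 1.18 on average (SE 0.20, adjusted p = 0.000137). In mice given 30 μmol/kg it read 8.45, 8.21, 8.63 and 8.46, within the range of vehicle mice but for 1 mouse, and lay 1.02 below 10 μmol/kg (adjusted p = 0.000635). The other Rbm33 probe set, 1435391_at, changed by -0.10 at 10 μmol/kg and was not called.

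Rbm5, a regulator of apoptosis-related splicing, rose at 10 μmol/kg on 2 of 4 probe sets. On 1452187_at vehicle mice read 6.32, 6.75, 5.82 and 6.42, 10 μmol/kg mice 7.32, 7.28, 7.77 and 6.94, and 30 μmol/kg mice 7.27, 6.94, 7.03 and 6.91. Both treated groups lay above all vehicle mice, by 1.00 (SE 0.20, adjusted p = 0.000843) and 0.71 (adjusted p = 0.0114). Without Wt vehicle replicate 3, the lowest, the 30 μmol/kg value was 0.54 and not called (adjusted p = 0.0652). The brightest Rbm5 probe set, 1452186_at, read 9.93, 9.95, 9.88 and 9.99 in vehicle mice and 9.76, 9.67, 9.72 and 9.54 at 30 μmol/kg, a change of -0.26 (adjusted p = 0.00734) that centring took to -0.09 (adjusted p = 0.378).

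Hnrnpr, an hnRNP with nuclear and cytoplasmic roles, rose on 1 of 4 probe sets, 1452030_a_at, at every CDDO-Im dose. Vehicle mice read 6.39, 6.6, 6.37 and 6.55; the 3 μmol/kg mice read 7.64, 7.41, 7.59 and 7.39, the 10 μmol/kg mice 7.48, 7.34, 7.28 and 6.97, and the 30 μmol/kg mice 7.64, 7.34, 7.53 and 7.19. The changes were 1.03 (adjusted p = 0.000203), 0.79 (SE 0.16, adjusted p = 0.000845) and 0.95 (adjusted p = 9.6e-05). No treated mouse overlapped vehicle, and the 3 doses overlapped each other. The D3T mice, at 6.01, 6.32, 6.27 and 6.46, overlapped vehicle. The brighter probe set 1437526_x_at changed by -0.04 at 10 and -0.11 at 30 μmol/kg, and neither was called.

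**Figure D3:**
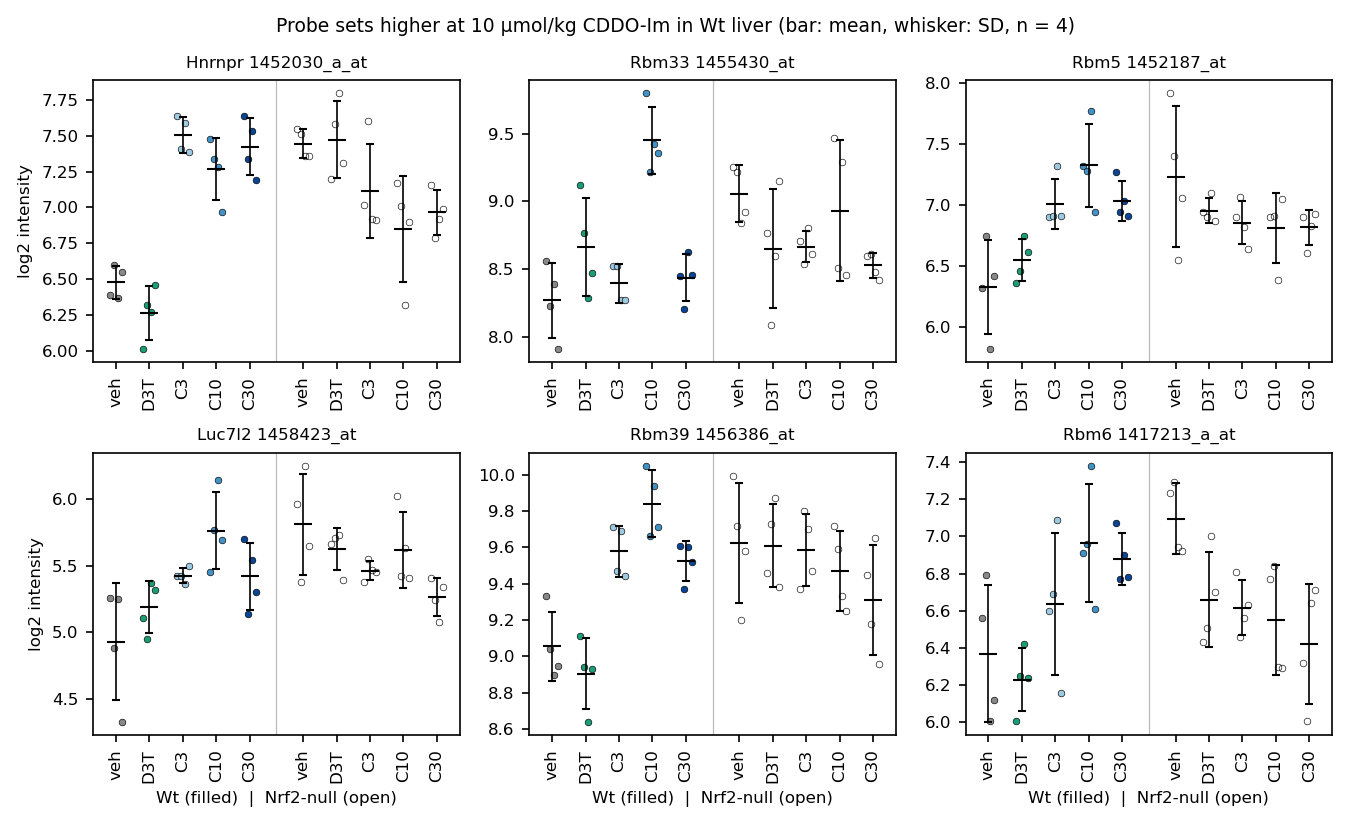
Log2 intensity per mouse in the 10 groups for Hnrnpr 1452030_a_at, Rbm33 1455430_at, Rbm5 1452187_at, Luc7l2 1458423_at, Rbm39 1456386_at and Rbm6 1417213_a_at, with bars for the mean and SD of 4 mice. The Wt vehicle mean lies below the Wt 10 μmol/kg mean and below the Nrf2-null vehicle mean on all 6.

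Rbm39, a U2AF-related splicing factor, had 12 probe sets, of which 3 rose and none fell at 10 μmol/kg. On 1456386_at vehicle mice read 9.33, 9.04, 8.9 and 8.95, 10 μmol/kg mice 10.05, 9.66, 9.94 and 9.71, and 30 μmol/kg mice 9.61, 9.37, 9.6 and 9.52. No treated mouse reached down to the vehicle range, and the change was 0.79 (adjusted p = 0.000553) and 0.47. Of the remaining sets, 1420982_at also rose at 30 μmol/kg (0.48) and 1438397_a_at fell (-0.45), the latter not called with centring. These 3 calls at 30 μmol/kg were each lost on leaving out any 1 of several mice. That of 1456386_at was lost without Wt vehicle replicate 2, 3 or 4 or 30 μmol/kg replicate 1 or 3 (0.42 to 0.47). That of 1420982_at was lost without Wt vehicle replicate 1, 2 or 4 or 30 μmol/kg replicate 2 or 3 (0.37 to 0.51). That of 1438397_a_at was lost without any 1 of 5 mice (-0.34 to -0.43). Rbm6, a relative of Rbm5, rose on 1417213_a_at by 0.59 at 10 μmol/kg (adjusted p = 0.0284), not called without Wt vehicle replicate 3 or 4 or 10 μmol/kg replicate 1, 2 or 3 (0.46 to 0.61).

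Hnrnpdl and Rbms1 were picked after their values were seen, because their probe sets moved together. Hnrnpdl, a relative of the AU-rich element binder Hnrnpd, rose on 3 of 7 at 10 μmol/kg (0.57, 0.48 and 0.36; 5 with centring), the first and the last not called without Wt vehicle replicate 2 or 3 or 10 μmol/kg replicate 2 (0.28 to 0.49). Of the same 7, 2 fell at 30 μmol/kg (-0.40 and -0.46; none with centring), and all 7 lay below 10 μmol/kg, by -0.42 to -0.75 (6 with centring). Rbms1, which binds single-stranded nucleic acid, rose on both probe sets at 10 μmol/kg (0.55 and 0.52; the first 0.45 and not called without Wt vehicle replicate 3), and both were lower at 30 than at 10 μmol/kg (-0.88 and -0.76). Over all members 12 were higher and 37 lower at 30 than at 10 μmol/kg, 26.6% against 17.3% of all probe sets (4.62% higher and 12.7% lower). With centring these were 16 and 20, against 15.7% of all probe sets (9.02% higher and 6.69% lower). Of the Srsf probe sets 7 were higher and 5 lower, or 8 and 1 with centring. The 7 higher belonged to 2 genes, with 5 of them on Srsf3, and the 5 lower to 3 genes. By gene the Srsf split without centring was thus not toward higher values.

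**Figure D4:**
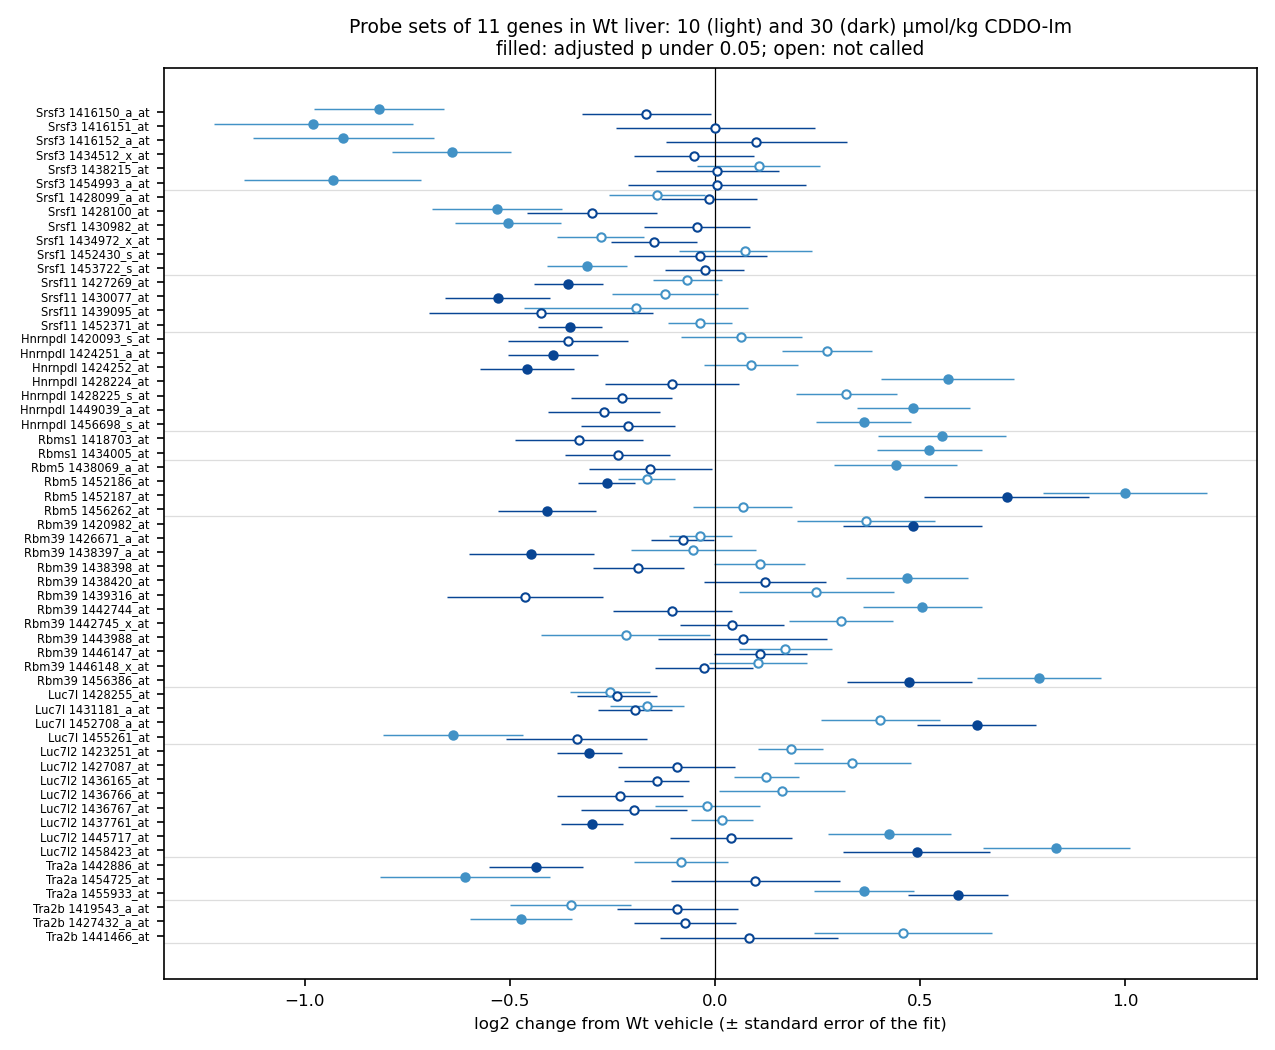
Log2 change against vehicle with its SE in Wt mice at 10 μmol/kg (light) and 30 μmol/kg (dark) for each probe set of 11 genes; filled points are called. Of 6 Srsf3 probe sets 5 are called lower at 10 μmol/kg and none at 30 μmol/kg, and those of Rbm5, Rbm39, Luc7l and Luc7l2 spread to both sides.

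Falls at 10 μmol/kg outside the Srsf family included Rbm12b1, Hnrnpab, Hnrnpul2 and Hnrnpc. Rbm12b1 1435158_at read 7.88, 8.69, 8.6 and 8.79 in vehicle mice and 7.37, 7.32, 7.66 and 7.7 in treated mice, a change of -0.98 with no overlap (adjusted p = 0.00412). Hnrnpul2 1434551_at, of an hnRNP U-like protein, read 10.08, 10.32, 10.4 and 10.34, then 9.37, 9.69, 9.6 and 9.66, a change of -0.70 (adjusted p = 3.17e-05). The treated mice again lay below every vehicle mouse. Hnrnpab 1426114_at, of a widely expressed RNA binder, read 13.21, 13.7, 13.52 and 13.26, then 12.92, 12.93, 12.23 and 12.72 (-0.72, adjusted p = 0.0303). That call was lost without Wt vehicle replicate 2 or 3 or 10 μmol/kg replicate 3 or 4 (-0.56 to -0.73). Hnrnpc, whose protein packages nascent RNA, fell on 2 probe sets, by 0.63 and 0.39 (the latter 0.30 and not called without 10 μmol/kg replicate 1).

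At 30 μmol/kg the 7 falls that held with centring were those of Hnrnpa1, Hnrnpl, both probe sets of Hnrnpll, Rbm28, Rbm43 and Clk2. Hnrnpa1 1436549_a_at, of a widely studied splicing repressor, read 9.51, 9.53, 9.43 and 9.53 in vehicle mice and 8.77, 8.79, 8.99 and 8.72 at 30 μmol/kg, a change of -0.68 (adjusted p = 9.12e-06; centred -0.51). The 10 μmol/kg mice, at 9.18, 9.37, 8.95 and 9.31, were all below vehicle as well (-0.30, adjusted p = 0.0283; centred -0.24, adjusted p = 0.119). The other Hnrnpa1 probe set, 1455305_x_at, changed by -0.22 at 30 μmol/kg and was not called (adjusted p = 0.0941). With centring it changed by -0.05 (adjusted p = 0.794). The difference between these probe sets, -0.46, was called in the pair test described below, so the fall was not shared by the gene's probe sets. Hnrnpl 1424101_at, a CA-repeat binder, read 8.94, 8.89, 8.78 and 8.94, then 8.18, 8.1, 7.95 and 8.69 at 30 μmol/kg, a change of -0.66 (adjusted p = 4.11e-05; centred -0.49). Its 10 μmol/kg mice, at 8.8, 9.15, 8.99 and 8.95, overlapped vehicle. Hnrnpll, a paralog of Hnrnpl, fell by 0.52 and 0.64 (centred -0.34 and -0.47), Rbm28 1426513_at by 0.64 and Rbm43 by 1.03, where 1 treated mouse at 5.68 reached the vehicle range of 5.66 to 6.32. Hnrnpd 1457568_at fell by 0.81 (adjusted p = 0.0351), and was not called with centring (adjusted p = 0.118) or without any 1 of Wt vehicle replicates 1 and 4 and the 4 treated mice (-0.71 to -0.83).

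Calls were not always shared by the probe sets of 1 gene. Of 43 genes with several probe sets, 22 had some but not all called at 10 μmol/kg, 3 had all and 18 none. At 30 μmol/kg these were 20, 2 and 21. The same counts over all genes are not given, and a call on 1 probe set alone does not show that it differs from another. Calls in both directions within 1 gene occurred in Tra2a at 10 μmol/kg and in Luc7l2, Rbm39, Rbm5 and Tra2a at 30 μmol/kg, but the falls in those 4 genes at 30 μmol/kg were not called with centring. The difference between probe sets of a gene on the same array, which no shift of a whole array can move, was therefore tested for 114 pairs, each a probe set minus the gene's brightest. At 10 μmol/kg 23 pairs in 16 genes were called (20.2%, against 16.7% of 6777 pairs in the whole table), and at 30 μmol/kg 14 in 13 genes (12.3% against 18.2%). The share was above that of the whole table at 10 and below it at 30 μmol/kg, and the difference in share was not tested. After D3T 1 pair was called, Rbm39 1442744_at (0.877% against 1.03%), and after 3 μmol/kg 2, of Hnrnpr and Rbm5 (1.75% against 3.41%). In Nrf2-null mice 4, 5, 1 and 4 pairs were called after D3T and 3, 10 and 30 μmol/kg, against 3.78%, 4.84%, 2.51% and 3.01% of all pairs. Between the vehicle groups 13 pairs in 10 genes were called (11.4% against 12.3%).

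At 10 μmol/kg the largest was Rbm33, where 1435391_at lost 1.27 relative to 1455430_at (SE 0.22, adjusted p = 9.92e-05). Rbm5 1452187_at gained 1.17 on 1452186_at (SE 0.20, adjusted p = 0.000111), and Hnrnpul2 1415765_at gained 1.15 (adjusted p = 0.000641). Tra2a 1455933_at gained 0.97 (adjusted p = 0.00226) and Srsf3 1438215_at gained 0.93 on 1416150_a_at (adjusted p = 0.00257). The pair of Hnrnpab 1459880_at also passed, but that probe set reached the minimum in 1 group only and read 3.91 to 3.94 on 20 of 40 arrays, so its difference is not given. At 30 μmol/kg the largest were Hnrnpr 1452030_a_at (1.05, adjusted p = 7.93e-05), Rbm5 1452187_at (0.97, adjusted p = 0.00084), Luc7l 1452708_a_at (0.88, adjusted p = 0.000164), Hnrnpul2 (0.85) and Rbm4b 1431113_at (0.73, adjusted p = 0.0294, lost without Wt vehicle replicate 2 or 3 or 30 μmol/kg replicate 2 or 4). Rbm4b 1431113_at is also dim and read 4.68 to 4.71 on 20 of 40 arrays. By itself it was not called at 30 μmol/kg (0.29, adjusted p = 0.194), though it was with centring (adjusted p = 0.0376). Its brighter partner 1430032_at was not called either (-0.43, adjusted p = 0.0844). Of the 23 pairs at 10 μmol/kg, 19 lay above the brightest probe set, and 15 pairs were called without Wt vehicle replicate 3. A gain can be a fall of the brightest probe set, which all pairs of a gene share. The brightest of Hnrnpab (-0.72), Srsf3 (-0.82), Hnrnpul2 (-0.70) and Tra2a (-0.61) were themselves called lower at 10 μmol/kg. The 19 are thus not separate rises. The array's probe sequences were not used here, so which transcript or exon each probe set reads was not determined; 38 of the 184 members carry the suffix for several transcripts of a gene and 29 a suffix for probes that may match other transcripts.

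The Luc7l genes rose on a few of their probe sets only. Luc7l2 1458423_at read 5.26, 4.88, 5.25 and 4.33 in vehicle mice, 5.45, 5.77, 6.14 and 5.69 at 10 μmol/kg and 5.7, 5.14, 5.54 and 5.3 at 30 μmol/kg. The change at 10 μmol/kg was 0.83 with no overlap (SE 0.18, adjusted p = 0.00158), and that at 30 μmol/kg 0.49 (adjusted p = 0.0483), which was lost without Wt vehicle replicate 2 or 4 or 30 μmol/kg replicate 1, 3 or 4 (0.29 to 0.53). Luc7l2 1445717_at rose at 10 μmol/kg by 0.43, not called without Wt vehicle replicate 1, 2 or 3 or 10 μmol/kg replicate 2 or 3 (0.34 to 0.44), while 1423251_at and 1437761_at fell by 0.31 and 0.30 at 30 μmol/kg, and neither fall was called with centring. The remaining 4 of the 8 were called at neither dose.

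Luc7l 1452708_a_at read 7.34, 7.33, 7.59 and 7.6 in vehicle mice, 7.76, 7.88, 8.15 and 7.68 at 10 μmol/kg (0.40, adjusted p = 0.0518; called with centring, adjusted p = 0.0177) and 8.41, 7.84, 8.03 and 8.13 at 30 μmol/kg. All treated mice were above all vehicle mice at both doses, and the change at 30 μmol/kg was 0.64 (adjusted p = 0.00222). Luc7l 1455261_at fell by 0.64 at 10 μmol/kg (adjusted p = 0.00981; 0.0517 without Wt vehicle replicate 3). Luc7l3 1451485_at read 9.78, 9.98, 9.81 and 10.08, then 10.51, 10.37, 10.35 and 10.18 at 10 μmol/kg, a rise of 0.44 (adjusted p = 0.00145), against 0.14 at 30 μmol/kg (adjusted p = 0.318; centred 0.31, adjusted p = 0.0366).

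The Tra2 genes gave mixed signs. Tra2a 1454725_at read 9.38, 10.01, 10.18 and 10.08 in vehicle mice and 9.18, 9.07, 9.49 and 9.48 at 10 μmol/kg, a change of -0.61 (adjusted p = 0.0388; centred 0.0734) with 1 vehicle mouse inside the treated range, and was lost without Wt vehicle replicate 2, 3 or 4 or 10 μmol/kg replicate 1 or 2 (-0.52 to -0.58). Tra2a 1455933_at read 5.02, 5.25, 5.27 and 5.29, then 5.8, 5.49, 5.49 and 5.5 at 10 μmol/kg (0.36, adjusted p = 0.0363) and 5.49, 5.5, 6.42 and 5.78 at 30 μmol/kg (0.59, adjusted p = 0.000899). On this dim probe set 23 of 40 arrays read 5.48 to 5.51, nearly 1 value, so its rise at 10 μmol/kg is from just below that value to that value, and was lost without Wt vehicle replicate 1, 2 or 3 or 10 μmol/kg replicate 1 or 4 (0.29 to 0.39). Tra2a 1442886_at fell by 0.44 at 30 μmol/kg, and was not called with centring (adjusted p = 0.104). Tra2b 1427432_a_at fell by 0.47 at 10 μmol/kg (adjusted p = 0.00821; 0.36 and 0.0562 without 10 μmol/kg replicate 1).

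Of the kinases that phosphorylate SR proteins, Clk2 fell. Clk2 1417743_at read 7.29, 8.05, 7.45 and 7.2 in vehicle mice, 6.5, 7.06, 7.15 and 7.22 at 10 μmol/kg and 7.0, 7.09, 6.54 and 6.72 at 30 μmol/kg. The 30 μmol/kg mice were all below vehicle (-0.66, adjusted p = 0.00485; centred -0.49, adjusted p = 0.0316). The 10 μmol/kg mice overlapped vehicle, and that change (-0.52, adjusted p = 0.0281) was lost without Wt vehicle replicate 2 or 3 or 10 μmol/kg replicate 1 (-0.33 to -0.53). Clk4 1422886_a_at fell by 0.44 at 30 μmol/kg (adjusted p = 0.0367; centred 0.241), a call lost without Wt vehicle replicate 2, 3 or 4 or 30 μmol/kg replicate 2 or 4 (-0.30 to -0.46), while Clk4 1427663_a_at was at 0.12, and their difference of 0.56 passed the pair test (adjusted p = 0.00495). Clk1 changed by 0.01 and -0.24 and Clk3 by -0.11 and -0.21 at 10 and 30 μmol/kg, none called.

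**Figure D5:**
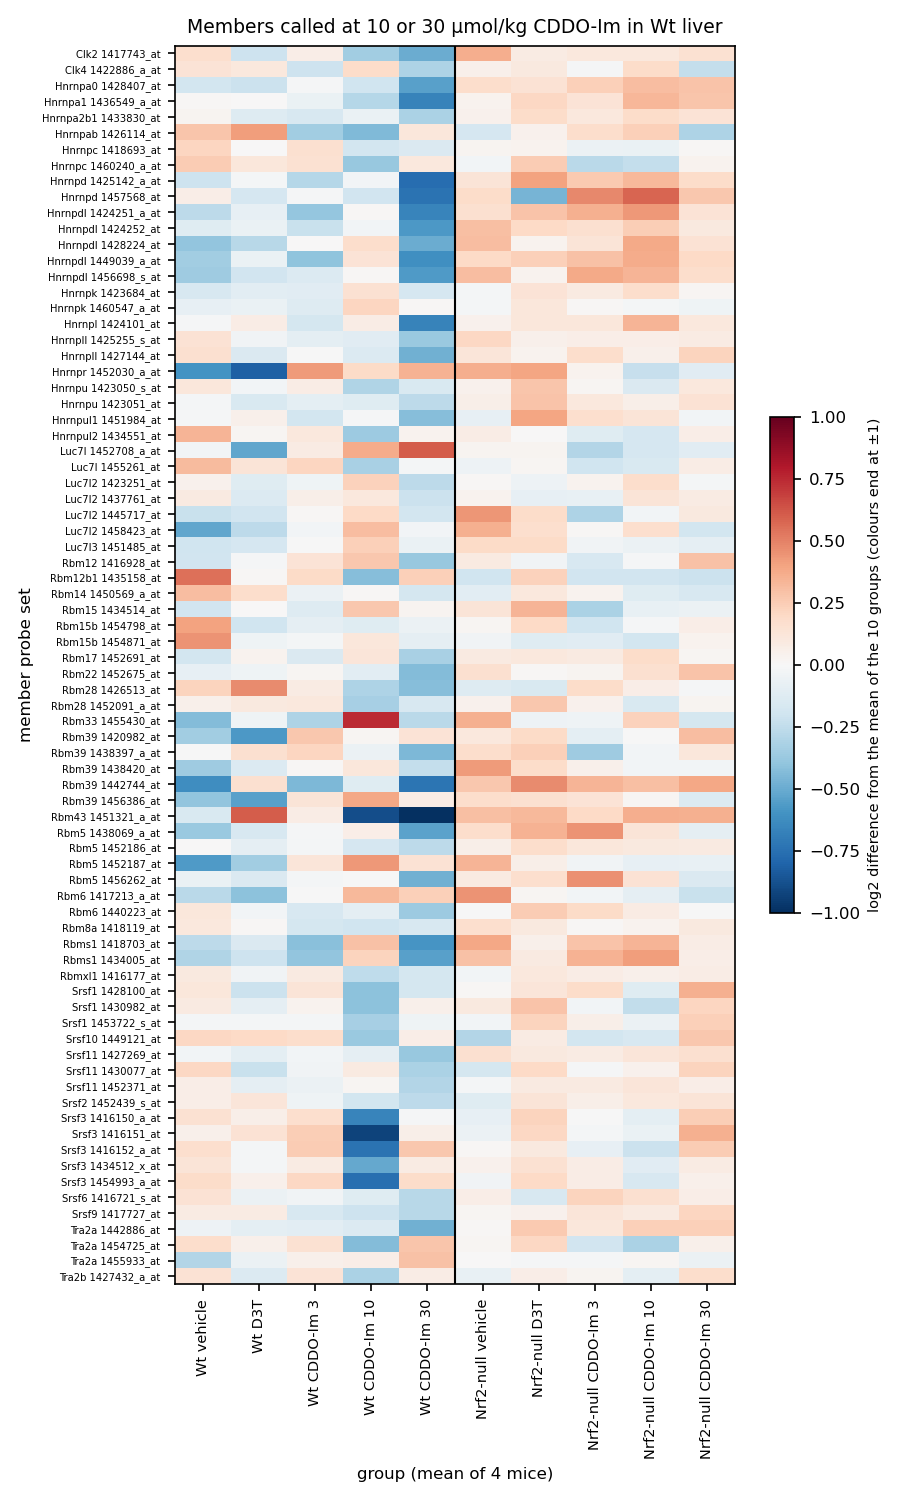
Mean log2 intensity of each of the 10 groups minus the mean of the 10 group means, for the 78 member probe sets called in Wt mice at 10 or 30 μmol/kg; colours end at -1 and 1. The 5 Srsf3 probe sets are lowest in the Wt 10 μmol/kg column, and Hnrnpr 1452030_a_at, Rbm5 1452187_at and Luc7l2 1458423_at have their lowest means in the Wt vehicle and Wt D3T columns.

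Response by genotype was tested as a difference between the 2 changes. At 10 μmol/kg 17 members were called, 12 with the larger value in Wt and 5 with the smaller (6.66% of all probe sets, 3.45% larger and 3.22% smaller). At 30 μmol/kg 26 were called, 9 larger and 17 smaller (10.9% of all, 3.04% larger and 7.88% smaller). With centring these were 14 and 6 (8.16% of all, 5.29% larger and 2.87% smaller). For D3T none was called, against 0.106% of all, 0.0739% larger and 0.0317% smaller (32 had an unadjusted p under 0.05). Rbm5 1452187_at differed by 1.42 at 10 μmol/kg and 1.12 at 30 μmol/kg, Hnrnpr 1452030_a_at by 1.38 (SE 0.22, adjusted p = 0.000138) and 1.43 (adjusted p = 6.54e-05), and Rbm33 1455430_at by 1.30 at 10 μmol/kg (adjusted p = 0.00341).

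The Nrf2-null arm of these differences held no called change. In it Hnrnpr 1452030_a_at read 7.55, 7.51, 7.36 and 7.36 with vehicle and 7.17, 7.01, 6.32 and 6.9 with 10 μmol/kg, a change of -0.60 that was not called (adjusted p = 0.0699). Rbm5 1452187_at read 7.92, 7.4, 6.55 and 7.06, then 6.9, 6.91, 6.39 and 7.05 (-0.42, adjusted p = 0.366). Rbm33 1455430_at read 9.25, 9.22, 8.84 and 8.92, then 9.47, 8.51, 9.29 and 8.46 (-0.13, adjusted p = 0.851). The Nrf2-null vehicle mice thus began at levels near those of treated Wt mice on all 3 probe sets.

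Among vehicle mice alone, 29 members were higher and 5 lower in Nrf2-null than in Wt livers, 18.5% against 11.1% of all probe sets (6.69% higher and 4.42% lower). With centring the split was 25 and 10 (background 12.8%, 5.03% higher and 7.78% lower), and 25 higher and 5 lower were called under both scalings. This comparison uses the same Wt vehicle mice as the treatment comparisons, so a low value in them enters both, and the shared direction is no separate finding. Summed endothelial and stellate markers were also higher in the Nrf2-null vehicle mice, as given with the marker lists. Hnrnpr 1452030_a_at was higher by 0.97 (adjusted p = 7.97e-05), Rbm5 1452187_at by 0.91 (adjusted p = 0.00277), Luc7l2 1458423_at by 0.88, Rbm33 1455430_at by 0.78 (adjusted p = 0.00878), Rbm6 1417213_a_at by 0.73 (0.60 and not called without Wt vehicle replicate 3), and Rbms1 by 0.65 and 0.60. Of the 7 Hnrnpdl probe sets 6 were higher.

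Members that differed by genotype without a called response in Wt mice included Rbm45. Rbm45 1437904_at, of a developmentally regulated RNA binder, read 8.02, 8.24, 8.17 and 8.12 in Wt vehicle mice and 9.01, 9.29, 8.71 and 9.5 in Nrf2-null vehicle mice, a difference of 0.99 with no overlap (adjusted p = 3.58e-05). All 5 Nrf2-null groups lay above all 5 Wt groups, at 8.71 to 9.74 against 7.46 to 8.4. Whether the loss of Nrf2 itself, or another difference between the 2 mouse lines, underlies this offset was not tested. Rbm39 1442744_at, which also responded in Wt mice, read 6.92, 7.19, 6.71 and 7.31 against 7.92, 8.07, 7.76 and 7.97 (0.90, adjusted p = 6.25e-05). Lower in Nrf2-null mice was Rbm47 1423411_at, the cofactor of apolipoprotein B mRNA editing (-0.96, adjusted p = 0.000762, with overlapping mice). The brighter Rbm47 probe set 1438021_at differed by -0.48 and was not called (adjusted p = 0.0637), though it was with centring (-0.54, adjusted p = 0.0269). Also lower was Rbm12b1 (-0.75), which responded in Wt mice too (-0.98 at 10 μmol/kg). Its genotype call was lost without Wt vehicle replicate 2, 3 or 4 or Nrf2-null vehicle replicate 1 or 2 (-0.43 to -0.77). Srsf5 1423130_a_at was higher by 0.47 (0.35 and not called without Wt vehicle replicate 3). Without Wt vehicle replicate 3, 18 members in place of 34 were called.

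D3T and CDDO-Im were given at different doses, 300 against 3, 10 and 30 μmol/kg, so their values stand side by side. The one call after D3T, Rbm39 1442744_at, read 8.24, 7.77, 7.66 and 7.6 in D3T mice, all above the vehicle mice (0.79, SE 0.14, adjusted p = 0.0015), and 7.47, 7.23, 7.79 and 7.65 at 10 μmol/kg CDDO-Im (0.51; 0.40 and 0.42, not called, without Wt vehicle replicate 3 or 10 μmol/kg replicate 3). With centring D3T gave 1 higher and 5 lower, against 3.44% of all probe sets (1.96% higher and 1.47% lower), a share like that of the members. Between the 10 μmol/kg CDDO-Im and D3T groups, 22 members were higher and 16 lower with CDDO-Im, 20.7% against 18.2% of all probe sets (7.01% higher and 11.2% lower). With centring these were 32 and 11, against 17.3% of all probe sets (9.77% higher and 7.56% lower). Srsf3 1416150_a_at was lower by 0.72 and Hnrnpr 1452030_a_at higher by 1.00 in the CDDO-Im mice. In Nrf2-null mice D3T raised Hnrnpr 1437526_x_at (0.37; not called with centring, adjusted p = 0.0812) and Hnrnpul1 (0.47), against 3.8% of all probe sets (2.03% higher and 1.77% lower), and 3 μmol/kg lowered Hnrnpf 1423382_a_at (-0.36; not called with centring, adjusted p = 0.0758) and Luc7l2 1445717_at (-0.76), against 1.38% (0.428% higher and 0.956% lower).

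The rest of the RNA-processing machinery was read by gene, with 17.3% of 9695 genes called at 10 μmol/kg and 22.3% at 30 μmol/kg. Gene shares by direction or with centring are not given, so the directions counted below are not set against all genes. By probe set, 10.3% of all were lower and 6.65% higher at 10 μmol/kg, and 16.2% and 3.62% at 30 μmol/kg. With centring these were 7.77% and 9.0%, and 4.84% and 8.64%. Of 52 spliceosome core genes 48 were measured: 1 rose and 11 fell at 10 μmol/kg (2 and 9 with centring), and 2 rose and 15 fell at 30 μmol/kg (4 and 7). Their median was -0.164 and -0.174, beside -0.077 and -0.157 for all genes. Prpf3, a component of the U4/U6 particle, fell by 0.80 at both doses, Sf3b3, of the U2 particle, by 0.64 at 30 μmol/kg, and Prpf19, the ubiquitin ligase of the spliceosome, rose by 0.74 at 10 μmol/kg. Of 44 measured other splicing regulators 5 rose and 6 fell at 10 μmol/kg (7 and 4 with centring), and none rose and 15 fell at 30 μmol/kg (2 and 5). Tardbp (TDP-43) fell by 0.91 at 10 μmol/kg, and Khdrbs3 and Akap8l by 0.62 each at 30 μmol/kg, Khdrbs3 not with centring (adjusted p = 0.118).

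Among 12 measured SR protein kinases and phosphatases Srpk2 rose at 10 μmol/kg (0.40) and Dyrk2 fell at 30 μmol/kg (-0.42; none with centring). Of 7 measured nonsense-mediated decay genes Smg6 rose (0.73) and Upf2 fell (-0.30) at 10 μmol/kg, and Upf2 (-0.51) and Smg1 (-0.26) fell at 30 μmol/kg. With centring only Smg6 at 10 μmol/kg and Upf2 at 30 μmol/kg were called, and Upf2 at 10 and Smg1 at 30 μmol/kg were not (adjusted p = 0.102 and 0.566). Of 19 cleavage and polyadenylation genes 1 rose and 2 fell at 10 μmol/kg, and 7 fell at 30 μmol/kg (1 higher and 1 lower with centring). Cstf3, a cleavage stimulation factor, fell by 0.68 and 0.70, Pcf11 rose by 0.62 at 10 μmol/kg, and Cpsf1 fell by 0.45 at 30 μmol/kg. Cstf3 and Cpsf1 were not called at 30 μmol/kg with centring (adjusted p = 0.089 and 0.0768). Cirbp, the cold-inducible RNA-binding protein, read 7.08, 5.72, 4.26 and 6.3 in Wt vehicle mice and 6.43, 7.01, 7.45 and 7.38 at 10 μmol/kg. The vehicle mice spread widely and overlapped the treated ones, though the rise of 1.23 was called (SE 0.38, adjusted p = 0.0227). The probe sets of Rbm3, its relative, carry several symbols and give no value here.

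Markers of cell types were read in the same mice, as called genes and as summed levels (log2). Of 7 measured hepatocyte markers none was called at 10 μmol/kg and 2 were lower at 30 μmol/kg (none with centring), and their summed level was 18.34 to 18.42 at 10 μmol/kg and 18.3 to 18.37 at 30 μmol/kg, against 18.41 to 18.44 with vehicle. Of 8 Kupffer cell markers 1 was higher at each dose, with summed levels of 13.28 to 13.93 with vehicle, 13.01 to 13.81 and 13.64 to 13.97. Of 5 stellate cell markers 1 was lower at 10 μmol/kg, and their sum was below every vehicle mouse at both doses, at 13.36 to 13.45 and 13.38 to 13.47 against 13.54 to 13.6. None of 6 endothelial markers was called, yet their sum also lay below vehicle without overlap, at 11.76 to 11.87 at 10 μmol/kg and 11.79 to 11.99 at 30 μmol/kg against 12.08 to 12.32. The sum of 2 exocrine pancreas markers, neither called, was 8.8 to 9.51 and 8.76 to 9.07 against 9.79 to 10.11. Of 2 bile duct markers 1 was lower at 10 μmol/kg, and no lymphocyte marker reached the minimum. Between the vehicle groups the sums were higher in Nrf2-null than in Wt mice without overlap for endothelial (12.35 to 12.62) and stellate markers (13.7 to 13.92), with no marker called, or 2 hepatocyte markers lower with centring. The part of these markers in the results was not tested.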

How the data were processed

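Total liver RNA of 40 mice was hybridised to 1-colour arrays. The authors normalized the arrays with GCRMA and deposited log2 intensities, 1 column per mouse, which were used as deposited; array depth cannot be given, and 4 mice per group limit the precision. Of 45037 probe sets, 34945 carried 1 gene symbol, 932 several and 9160 none; only the first kind was named, and all 184 members matched RefSeq.

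Probe sets reaching log2 4 on 3 or more arrays of a group were kept and fitted in 1 limma model over 10 groups (R 4.3.3, limma 3.58.1, statmod 1.5.0; trend and robust variances), with Benjamini-Hochberg adjustment over 18935 probe sets at 0.05. Within-gene differences used the same model over 6777 pairs. The code was tested on simulated data. Tables and plots used Python 3.11.15, pandas 2.3.3 and Matplotlib 3.10.9. Gene lists were read on the brightest kept probe set of each gene.

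Named were the 5 largest non-overlapping rises and falls of each main comparison, all Clk, Tra2 and Luc7l probe sets, the 5 largest pair differences, Rbm3 and Cirbp, and the 2 most changed genes of each RNA-processing list. Hnrnpc, Hnrnpdl, Hnrnpf, Hnrnpll, Hnrnpul1, Rbm6, Rbm43, Rbm47, Rbms1, the Srsf genes other than Srsf3 and further probe sets of named genes lie outside that rule and were added after their values were seen. Members and lists were chosen with earlier results of these data known. Labels name separate mice, and alternatives are given in the closing section.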

Additional observations from a re-analysis of the deposited data

Results flagged for a closer look

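Of 300 groups of 4 mice, over 30 named probe sets, 25 had 1 mouse far from the other 3 by Dixon's ratio, where chance alone gives about 1 in 20. Several lie on dim probe sets at which most arrays share nearly 1 value. On Hnrnpa1 1436549_a_at, Wt vehicle replicate 3 read 9.43 (the others 9.51 to 9.53). On Hnrnpab 1426114_at, Nrf2-null vehicle replicate 1 read 12.41 (the others 13.11 to 13.21) and Nrf2-null CDDO-Im 3 replicate 2 read 12.51 (the others 13.5 to 13.64). On Hnrnpab 1459880_at, Wt vehicle replicate 3 read 3.02 (the others 3.91 to 3.93), Wt D3T replicate 4 read 3.68 (the others 3.93 to 3.96), Wt CDDO-Im 3 replicate 3 read 3.88 (the others 3.93 to 3.93) and Wt CDDO-Im 30 replicate 4 read 3.68 (the others 3.93 to 3.94). On Hnrnpl 1424101_at, Nrf2-null CDDO-Im 30 replicate 2 read 9.14 (the others 8.95 to 8.97). On Hnrnpr 1452030_a_at, Nrf2-null CDDO-Im 3 replicate 2 read 7.6 (the others 6.91 to 7.02). On Luc7l 1452708_a_at, Wt CDDO-Im 3 replicate 1 read 7.74 (the others 7.51 to 7.54). On Rbm12b1 1435158_at, Nrf2-null D3T replicate 4 read 8.87 (the others 7.92 to 7.98). On Rbm4b 1431113_at, Nrf2-null D3T replicate 3 read 5.47 (the others 4.69 to 4.81), Nrf2-null CDDO-Im 3 replicate 3 read 5.17 (the others 4.6 to 4.69) and Nrf2-null CDDO-Im 30 replicate 2 read 4.75 (the others 4.69 to 4.69). On Rbm5 1452186_at, Wt CDDO-Im 10 replicate 2 read 9.59 (the others 9.81 to 9.84). On Rbm5 1452187_at, Wt CDDO-Im 3 replicate 3 read 7.32 (the others 6.9 to 6.91). On Srsf3 1416150_a_at, Wt CDDO-Im 3 replicate 2 read 11.54 (the others 11.67 to 11.69) and Wt CDDO-Im 10 replicate 1 read 10.52 (the others 10.91 to 10.93). On Srsf3 1454993_a_at, Wt CDDO-Im 10 replicate 1 read 8.3 (the others 8.61 to 8.65). On Tra2a 1454725_at, Wt D3T replicate 3 read 9.69 (the others 9.81 to 9.83) and Nrf2-null vehicle replicate 1 read 8.93 (the others 10 to 10.07). On Tra2a 1455933_at, Wt vehicle replicate 1 read 5.02 (the others 5.25 to 5.29), Wt CDDO-Im 3 replicate 2 read 5.69 (the others 5.49 to 5.52), Wt CDDO-Im 10 replicate 1 read 5.8 (the others 5.49 to 5.5) and Nrf2-null CDDO-Im 30 replicate 1 read 5.3 (the others 5.48 to 5.5).

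The response to 10 μmol/kg CDDO-Im differed between genotypes by the interaction term of the limma fit on 10 of the 30 named probe sets screened in this section, given as the log2 change in Wt minus that in Nrf2-null mice: Hnrnpa1 1436549_a_at (-0.60), Hnrnpab 1426114_at (-1.12), Hnrnpab 1459880_at (0.80), Hnrnpr 1452030_a_at (1.38), Luc7l2 1458423_at (1.02), Rbm28 1426513_at (-0.72), Rbm33 1455430_at (1.30), Rbm39 1456386_at (0.94), Rbm5 1452187_at (1.42) and Srsf3 1416150_a_at (-0.80). The screen left out those Luc7l, Tra2 and Clk probe sets that were named only for their family. Among these, Luc7l2 1445717_at (0.89) and Luc7l3 1451485_at (0.69) were also called at 10 μmol/kg. The response to 30 μmol/kg CDDO-Im differed between genotypes by the interaction term of the limma fit on 10 of the same 30 probe sets, given as the log2 change in Wt minus that in Nrf2-null mice: Hnrnpa1 1436549_a_at (-0.92), Hnrnpl 1424101_at (-0.71), Hnrnpr 1452030_a_at (1.43), Luc7l 1452708_a_at (0.77), Luc7l2 1458423_at (1.03), Rbm28 1426513_at (-0.76), Rbm39 1456386_at (0.78), Rbm5 1452186_at (-0.30), Rbm5 1452187_at (1.12) and Tra2a 1455933_at (0.66). Outside the screen, Tra2a 1442886_at (-0.66), Luc7l3 1451485_at (0.42) and Luc7l2 1437761_at (-0.345) were also called at 30 μmol/kg, the last not with centring (adjusted p = 0.336). With centring the differences of Rbm28 1426513_at and Rbm5 1452186_at at 30 μmol/kg were not called (adjusted p = 0.0916 and 0.397). Hnrnpab 1459880_at reached the expression minimum in 1 group only and read 3.91 to 3.94 on 20 of 40 arrays, so nothing is read from its difference. In the same genotype difference at 30 μmol/kg 1 of 2 exocrine pancreas markers was lower, whose part was not tested. Wt and Nrf2-null vehicle mice enter both sets of differences.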

How the results depend on the processing

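No called change of a named probe set turned its sign under the alternatives run, though with centring the higher and lower calls at Wt 30 μmol/kg went from 7 and 34 to 17 and 7, and some small uncalled changes changed sign. Leaving out 1 mouse at a time, calls of members ran from 1 to 4 for Wt D3T, 1 to 2 for Wt 3 μmol/kg, 28 to 52 for 10 μmol/kg, 28 to 42 for 30 μmol/kg, 0 to 6, 1 to 4, 0 to 7 and 0 to 1 for Nrf2-null D3T, 3, 10 and 30 μmol/kg, 18 to 37 for Nrf2-null against Wt vehicle, 31 to 33 for 10 μmol/kg against D3T, 39 to 47 for 30 against 10 μmol/kg, and 0 to 2, 12 to 26 and 20 to 28 for the genotype differences at D3T, 10 and 30 μmol/kg. Without Wt vehicle replicate 3 the 10 μmol/kg count was 28 (10 higher and 18 lower, in place of 50), and without 10 μmol/kg replicate 1 it was 32. The genotype difference at 10 μmol/kg reached 26 without Nrf2-null vehicle replicate 4. Pairs ran from 15 to 22 at 10 μmol/kg, 13 to 16 at 30 μmol/kg and stood at 1 for D3T.

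With no minimum the counts were 32 for 10 μmol/kg, 1 for Nrf2-null D3T, and 11 and 17 for the genotype differences at 10 and 30 μmol/kg. A minimum of log2 6 gave 3 for Wt D3T and 1 for its genotype difference. Centring gave 6 for Wt D3T, 24 for Wt 30 μmol/kg, 1 each for Nrf2-null D3T and 3 μmol/kg, and 1 for the D3T genotype difference. Without trend and robust variances Wt D3T gave 2. With 1 probe set per gene, 70 tested, the counts were 0 for Wt 3 μmol/kg, 21 and 17 for 10 and 30 μmol/kg, 0 for Nrf2-null 3 μmol/kg, 10 for Nrf2-null against Wt vehicle, 13 for 10 μmol/kg against D3T, 21 for 30 against 10 μmol/kg, and 5 and 9 for the genotype differences. Fitting only the groups compared gave 4 for Wt D3T, 0 for Nrf2-null D3T and 3 μmol/kg, 7 for Nrf2-null against Wt vehicle, and 10 and 16 for the genotype differences. The exact Wilcoxon test with a 1.5-fold minimum gave 3, 4, 14 and 10 in Wt mice for D3T, 3, 10 and 30 μmol/kg, 0, 1, 1 and 1 in Nrf2-null mice, 13 between vehicle groups, 16 for 10 μmol/kg against D3T and 18 for 30 against 10 μmol/kg. Fewer genes or mice tested is part of several alternatives; otherwise the cause was not tested.

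Replicate numbers did not pair the mice (median correlation of deviations 0.008 for the same number and -0.005 for other numbers), and a replicate block gave 2 for Wt D3T and 2 for its genotype difference. Of 54 calls of named probe sets, 10 were lost with centring, 14 with no minimum, and 6, 13, 17 and 11 without Wt vehicle replicates 1, 2, 3 and 4.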
